A study of Mus musculus with 36 samples.

Results

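The liver transcripts of 9 genes were followed from before birth to adulthood: 4 alcohol dehydrogenases (Adh1, Adh4, Adh5 and Adh7) and 5 aldehyde dehydrogenases (Aldh2, Aldh1b1, Aldh1l1, Aldh3a2 and Aldh8a1). They were taken by gene symbol from a table of 21889 symbols, and all 9 were found. The table gives RNA-Seq values for livers of 36 male C57BL/6 mice, as 12 ages of 3 mice. The early ages were GD17.5 (before birth, labelled Day -2), Day 0, Day 1, Day 3 and Day 5, the later suckling ages Day 10, Day 15 and Day 20, and the ages after weaning Day 25, Day 30, Day 45 and Day 60. No treatment or altered allele was named for any group. The strain is given as in the labels, and the pups were bred from purchased C57BL/6J mice on standard chow and weaned at day 21. Day 0 livers were taken before suckling, so Days 1 to 20 are suckling ages and Days 25 to 60 follow weaning. Collection at Day 0 and Day 1 was timed from birth, and from Day 3 onward it was at a set morning hour. Time of day could therefore differ between the early ages and was not modelled. Values are FPKM, fragment counts scaled for library size and for transcript length, so that levels can be compared between genes.

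Alcohol dehydrogenases (ADH) oxidise alcohols to aldehydes or ketones with NAD+, and aldehyde dehydrogenases (ALDH) oxidise aldehydes to carboxylic acids. In liver the pair of reactions clears ethanol by way of acetaldehyde, and the same enzyme families act on retinol and retinal, formaldehyde, fatty alcohols and aldehydes, and intermediates of amino acid and folate metabolism. Adh1 encodes the class I enzyme, the main ethanol-oxidising ADH of liver. Adh4 encodes the class II enzyme, Adh5 the class III enzyme (the glutathione-dependent formaldehyde dehydrogenase, present in nearly all tissues) and Adh7 the class IV enzyme, best known from stomach and other epithelia. Aldh2 encodes the mitochondrial enzyme that oxidises acetaldehyde and Aldh1b1 a related mitochondrial enzyme. Aldh1l1 encodes cytosolic 10-formyltetrahydrofolate dehydrogenase, Aldh3a2 the fatty aldehyde dehydrogenase, and Aldh8a1 an enzyme of the kynurenine route of tryptophan breakdown.

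The 4 ADH genes lie in a cluster of 7 annotated ADH genes and pseudogenes on the plus strand of chromosome 3, in the order Adh7, Adh1, Adh6a, Adh6b, Adh6-ps1, Adh4 and Adh5, over 238 kb (NCBI37/mm9). Adh1 is at chr3:137923955-137953662, Adh4 at chr3:138078430-138093856, Adh5 at chr3:138106057-138118463 and Adh7 at chr3:137880787-137896346. Of the 4, Adh4 and Adh5 are the closest neighbours, with 12200 bases between them. The ALDH genes are dispersed: Aldh2 at chr5:122016036-122043833 on the minus strand, Aldh1b1 at chr4:45811894-45817476, Aldh1l1 at chr6:90436421-90550197, Aldh3a2 at chr11:61036919-61080966 on the minus strand, and Aldh8a1 at chr10:21097097-21116391.

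Windows of 300 bases at the transcription starts (250 before and 50 after) were available for 8 of the 9 genes in the RefSeq set for GRCm38.p6, a later build than the one above. The windows of Adh1, Adh4 and Adh5 are printed because these neighbours differed widely in the size of their change with age, and because CpG content, which in general separates widely used from restricted promoters, differed between the Adh4 and the printed Adh5 window. Adh5 has a pair of windows, of which the downstream one is shown. Its upstream window (chr3:138436950-138437249) held 3 CpG, with 23.3% of all windows below it, a TATAAA match at -207 and no GC box, so the difference in CpG content from Adh4 holds for the downstream window. Capitals mark matches, on either strand, to any of 6 short motifs: the TATA box (TATAAA), the CCAAT box (CCAAT), the GC box (GGGCGG), a nuclear receptor core (AGGTCA), an HNF1 core (GTTAAT) and a C/EBP core (TTGCNNAA).
Adh1 (chr3:138277335-138277634, plus strand): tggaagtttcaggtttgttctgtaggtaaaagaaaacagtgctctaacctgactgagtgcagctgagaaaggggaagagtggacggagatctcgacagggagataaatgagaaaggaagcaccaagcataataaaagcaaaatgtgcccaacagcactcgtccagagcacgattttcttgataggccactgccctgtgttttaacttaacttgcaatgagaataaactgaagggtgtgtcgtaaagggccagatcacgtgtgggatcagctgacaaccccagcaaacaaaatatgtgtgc
Adh4 (chr3:138415247-138415546, plus strand): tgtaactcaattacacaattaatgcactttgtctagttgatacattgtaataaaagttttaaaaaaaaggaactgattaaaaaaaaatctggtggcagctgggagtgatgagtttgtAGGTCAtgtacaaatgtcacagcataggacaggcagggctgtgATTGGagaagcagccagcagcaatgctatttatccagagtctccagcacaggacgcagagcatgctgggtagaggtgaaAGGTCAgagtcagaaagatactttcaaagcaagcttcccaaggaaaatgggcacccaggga
Adh5 (chr3:138442843-138443142, plus strand): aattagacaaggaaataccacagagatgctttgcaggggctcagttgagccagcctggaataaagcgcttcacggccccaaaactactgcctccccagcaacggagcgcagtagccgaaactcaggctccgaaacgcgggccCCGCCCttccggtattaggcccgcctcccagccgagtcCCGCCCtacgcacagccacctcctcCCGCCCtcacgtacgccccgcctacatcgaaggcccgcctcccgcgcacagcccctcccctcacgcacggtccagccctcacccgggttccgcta

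The Adh1 window held 6 CpG dinucleotides and no match to any of the 6 motifs. Judged by the shift of its neighbours between the builds, this window lay within the gene, downstream of the Adh1 start given above. That start was therefore not covered. The Adh4 window held 1 CpG, fewer than most windows, since only 5.43% of all 32851 windows had fewer. It held AGGTCA at positions -133 and -11 from the start and a CCAAT box on the minus strand at -90. The downstream Adh5 window held 26 CpG, more than 83.1% of all windows, and GC boxes on the minus strand at -108, -70 and -45. Across all windows the median was 7 CpG, 16.3% held AGGTCA, 37.4% CCAAT, 35.7% GGGCGG, 13.6% TATAAA, 7.1% GTTAAT and 10.8% TTGCNNAA. In the windows of the other members CCAAT was found in Adh7, Aldh1b1, Aldh1l1 and Aldh3a2, a GC box in Aldh1b1, Aldh1l1 and Aldh3a2, AGGTCA in Aldh1l1, TATAAA in Adh7, TTGCNNAA in Adh7 and Aldh1l1, and none of the motifs in Aldh8a1. No matches overlapped in a printed window, and a match is a match of letters only.

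Every library held liver RNA: the 10 hepatocyte markers summed to between 9040 and 10900 FPKM at GD17.5 and to at least 41300 at every later age, with none at 0. Replicates of one age had a correlation of at least 0.971 over all gene symbols on the log2(FPKM + 1) scale, and no library pair was identical. The 9 erythroid markers in the table fell from 3300-4090 FPKM in sum at GD17.5 to 66.1-72.6 at Day 60, and the 10 markers of other blood cells from 1680-3080 to 4.25-6.5. In bulk liver fewer cells of a type and less RNA per cell cannot be told apart, and the part of this change in blood cell RNA in the results below was not tested. Some libraries held RNA of neighbouring organs. Exocrine pancreas RNA was found in mice of many ages, and its 5 markers summed to 446-4050 FPKM in the Day 0 mice and to 16100 in Day 60 mouse 1, beside 4.52 and 4.42 in the other Day 60 mice. Day 0 mouse 1 had 1130 FPKM over 5 skeletal muscle and 33.1 over 7 stomach and forestomach markers. Of the latter, the keratins Krt4, Krt13 and Krt5 had Day 0 means of 6.22, 4.07 and 0.767 FPKM. Tff1 had 0.104, Gkn2 0.00582, and Gkn1 and Muc5ac 0. Without Day 60 mouse 1 the members called between GD17.5 and Day 60 were 8 in place of 9, and without Day 0 mouse 1 those called between GD17.5 and Day 0 were 5 in place of 6. The call lost was that of Aldh1b1 in both. From the steps between low values, depth was put at about 81700000 fragments per library.

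All 9 members differed from Day 60 at some age, which is common in these livers, since 90.7% of the 11149 genes tested did so (8 members without Day 60 mouse 1; limma on log2(FPKM + 1), Benjamini-Hochberg adjusted p under 0.05). Between GD17.5 and Day 60, 8 members were higher at Day 60 and Aldh1b1 was lower. Among all tested genes 75.1% were called in this comparison, 18.6% higher and 56.4% lower at Day 60, with a median difference of -0.56 on the log2 scale, against 2.09 for the members. This split depended on how libraries were scaled: it was 30.2% higher and 40.0% lower with a common upper quartile and 35.1% and 34.7% with median ratio scaling. Under the first, 8 members were higher and Aldh1b1 was not called. Under the second, where Adh7 failed the filter, 7 of 8 were higher and none lower.

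Adh1 gained the most FPKM, from 60.7, 57.8 and 70.7 FPKM at GD17.5 to 1763, 2025 and 2044 FPKM at Day 60. That put it at rank 711 of the tested genes before birth and at rank 30 at Day 60. The difference was 4.93 on the log2(FPKM + 1) scale (95% interval 4.48 to 5.37, adjusted p = 4.75e-18, limma). The rise had separate phases. The GD17.5 and Day 0 values did not overlap, and at Day 0 the mice had 672, 813 and 863 FPKM, a difference of 3.61 (adjusted p = 1.16e-13, limma).

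Adh1 then fell. At Day 1 the mice had 283, 391 and 304 FPKM, below every Day 0 mouse, with a difference of -1.27 (adjusted p = 7.63e-05, limma). From there the level climbed through suckling to 812, 882 and 750 FPKM at Day 10 and 2025, 1832 and 2193 FPKM at Day 20. The Day 15 mice were spread widely, at 824, 1366 and 1810 FPKM. Its highest mean was at Day 25, with 2739, 3250 and 3180 FPKM, 157% of the Day 60 mean. The step from Day 20 to Day 25 was 0.60 and did not pass the test (adjusted p = 0.1, limma), although the values did not overlap. With TPM scaling the step was 0.62 and passed (adjusted p = 0.0481, limma). Day 25 (0.65, adjusted p = 0.0688, limma), Day 30 and Day 45 were not called against Day 60. The step from Day 25 to Day 30 was not called either (-0.49, adjusted p = 0.455, limma).

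Adh4 had the lowest level of the 9 genes before birth and the largest difference on the log2 scale. At GD17.5 it had 0.0501, 0.0275 and 0.00938 FPKM, which correspond to between 0.95 and 4.8 estimated fragments per library, so this level is close to the limit of detection. At Day 0 it had 0.195, 0.143 and 0.229 FPKM, at Day 1 0.583, 0.374 and 0.649 FPKM, and at Day 5 1.47, 1.70 and 1.18 FPKM. By Day 20 the mice had 9.37, 13.4 and 13.1 FPKM and by Day 60 64.2, 62.2 and 42.4 FPKM. Its mean rose at every step, and at 8 of the 11 steps the values of the mice did not overlap.

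The difference of Adh4 between GD17.5 and Day 60 was 5.78 on the log2(FPKM + 1) scale (95% interval 5.47 to 6.08, adjusted p = 1.96e-23, limma). The pseudocount of 1 hides most of its early change, and with a pseudocount of 0.1 the step from GD17.5 to Day 0, 0.21 and not called (adjusted p = 0.241, limma), became 1.17 and was called. Between Day 20 and Day 25, the ages on either side of weaning, Adh4 rose from 9.37, 13.4 and 13.1 FPKM to 39.1, 35.4 and 36.4 FPKM. The difference was 1.57 (adjusted p = 7.85e-09, limma), and Adh4 was the single member called there. Across all genes 7.19% were called at this step, 3.94% higher and 3.26% lower. Adh4 still lay below Day 60 at Day 25, by 0.57 (adjusted p = 0.0139, limma), and no longer differed at Day 30.

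Adh5 changed far less. It had 64.4, 71.7 and 77.3 FPKM before birth, 105, 100.1 and 90.4 at Day 0, and 125, 140 and 134 in adults (Day 60). The Day 60 mean was 1.87 times that of GD17.5, and the difference was 0.90 (adjusted p = 1.95e-08, limma). Day 0 was above GD17.5 by 0.46 (adjusted p = 0.000808), and Day 3 fell back below Day 1 by 0.44 (adjusted p = 0.00706, limma), to 80.3, 81.6 and 88.0 FPKM. From Day 20 onward no age differed from Day 60 for Adh5.

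Adh7 was low at every age, at 0.076, 0.121 and 0.107 FPKM before birth and 0.589, 0.822 and 0.789 FPKM at Day 60. Day 60 was above GD17.5 by 0.65 (adjusted p = 1.11e-06, limma). Its highest level was at Day 1, with 1.24, 1.44 and 1.31 FPKM, above every mouse of every other age. The rise from GD17.5 to Day 0 was 0.79 (adjusted p = 2.48e-07, limma). The Day 0 mouse with the highest Adh7, 1.18 FPKM, was also the mouse with 33.1 FPKM over the stomach and forestomach markers, where keratins had the highest means. Without that mouse the difference was 0.69 (adjusted p = 5.13e-06, limma). In the other Day 0 mice, with Adh7 at 0.891 and 0.67 FPKM, the 7 stomach and forestomach markers summed to 0.0711 and 0.326 FPKM. The part of RNA from other organs in the Adh7 values was not tested.

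**Figure D1:**
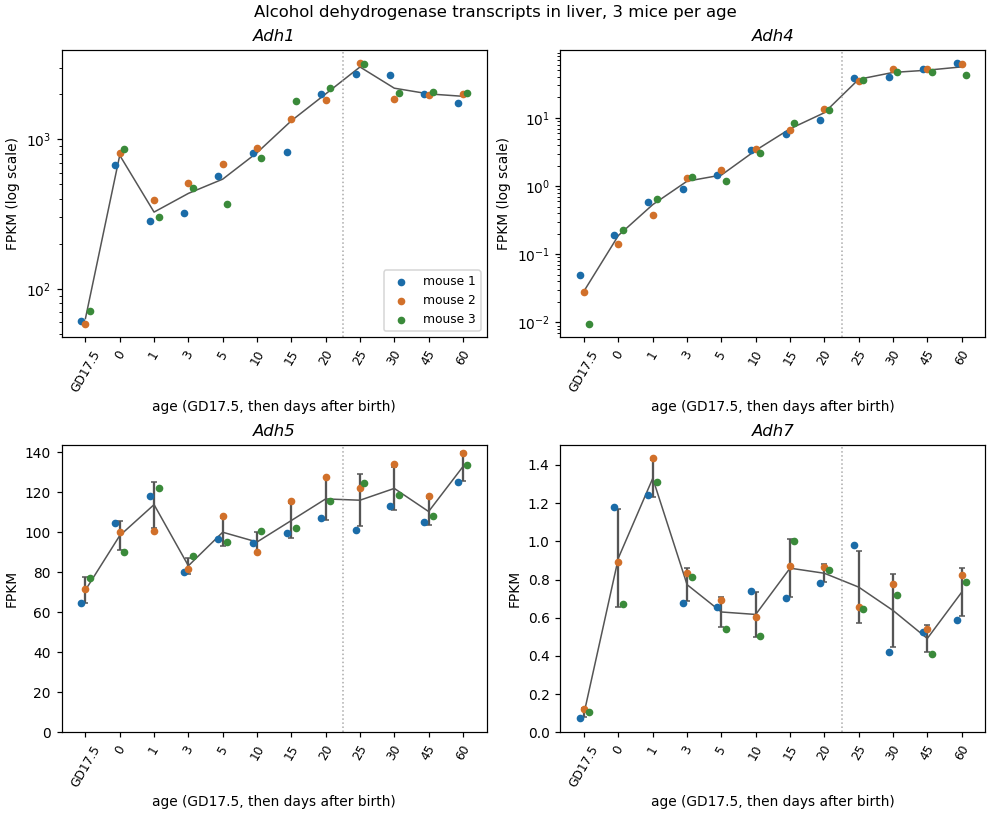
FPKM of Adh1, Adh4, Adh5 and Adh7 in each of 36 mice against age (points, 3 mice per age; lines join age means, error bars on the linear panels are SD). The Adh1 and Adh4 axes are logarithmic, and the dotted line marks weaning. The means of Adh1 show a peak at Day 0 and a higher one at Day 25, which was not called against Day 60. Adh4 rises from 0.029 to 56.3 FPKM without a fall in its mean.

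The makeup of the ADH transcripts changed with these courses. Before birth Adh5 made up 53.0% ± 2.07 (SD, n = 3) of the summed FPKM of the 4 genes and Adh1 46.9% ± 2.08. At Day 0 Adh1 made up 88.6% ± 2.06, at Day 1 73.5% ± 5.0 and at Day 25 95.2% ± 0.141. Adh4 reached 2.66% ± 0.697 at Day 60 and Adh7 was never above 0.302% in the mean of an age. The ratio of Adh1 to Adh5 within a library, which no scaling of libraries can change, went from 0.888 ± 0.0727 at GD17.5 to 8.03 ± 1.57 in newborns (Day 0), 26.4 ± 0.827 at Day 25 and 14.6 ± 0.606 at Day 60. The Adh4 to Adh5 ratio rose from 0.000427 to 0.425 over the same span. The summed FPKM of the 4 ADH genes rose from 134 ± 12.1 to 2134 ± 156.

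Among the aldehyde dehydrogenases, Aldh1l1 had the largest change. It had 29.03, 29.7 and 29.8 FPKM before birth, 95.8, 65.9 and 93.7 at Day 0, 219, 244 and 186 at Day 10, and 438, 446 and 533 at Day 60. The GD17.5 mice were below all others. The difference between GD17.5 and Day 60 was 3.95 (adjusted p = 3.03e-16, limma) and that between GD17.5 and Day 0 was 1.48 (adjusted p = 1.58e-06). From Day 20 it no longer differed from Day 60. At Day 30, 1 mouse (mouse 1) was low at 245 FPKM beside 510 and 413 in the others.

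Aldh2 followed a course with separate rises. It had 65.1, 77.8 and 91.1 FPKM at GD17.5 and 164, 147 and 131 FPKM at Day 0, a difference of 0.92 (adjusted p = 8.09e-05, limma). It then declined to 105, 93.9 and 72.2 FPKM at Day 5, where it overlapped the GD17.5 values. Between Day 15 and Day 20 it rose from 125, 113 and 102 to 169, 197 and 239 FPKM, a difference of 0.82 (adjusted p = 0.0076, limma). At Day 60 it had 336, 391 and 277 FPKM, above GD17.5 by 2.09 (adjusted p = 8.72e-12, limma). Days 20 and 25 were still below Day 60, by 0.73 and 0.78 (adjusted p = 0.00322 and 0.00394, limma), while Adh1 was not called against Day 60 at those ages.

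Aldh3a2 and Aldh8a1 had their largest difference between neighbouring ages from Day 0 to Day 1. Aldh3a2 had 13.7, 12.2 and 12.6 FPKM at GD17.5 and 9.86, 14.8 and 11.3 FPKM at Day 0, which overlapped. At Day 1 it had 71.3, 60.4 and 44.8 FPKM, a difference of 2.20 from Day 0 (adjusted p = 3.74e-07, limma), and its mean was then at 99.8% of Day 60. It was lower again later, at 15.9, 32.4 and 30.9 FPKM at Day 30, which differed from Day 60 by -1.15 (adjusted p = 0.00975, limma). The lowest of these was mouse 1, which was also low in other members, and this difference was not examined without it. At Day 60 the mice had 72.3, 65.1 and 39.6 FPKM. Day 60 was above GD17.5 by 2.07 (adjusted p = 5.13e-08, limma), without overlap.

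Aldh8a1 had 16.4, 13.6 and 15.9 FPKM before birth. It had 20.8, 22.2 and 16.1 FPKM at Day 0 and 55.9, 39.1 and 42.4 FPKM at Day 1, without overlap. The difference was 1.17 (adjusted p = 9.09e-06, limma). It rose further to 82.3, 82.4 and 82.1 FPKM at Day 20 and had 86.2, 85.3 and 87.0 FPKM at Day 60 (SD 0.159 and 0.863), a difference of 2.42 from GD17.5 (adjusted p = 3.06e-13, limma). Between them 1 Day 30 mouse (mouse 1) was at 42.8 FPKM, beside 82.0 and 62.8 in the others. The same mouse was the lowest of its age in all members but Adh1, and its library had an upper quartile of 7.06 FPKM against 9.04 and 9.54, a difference whose part in these values was not tested.

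Aldh1b1 was the single member lower at Day 60 than at GD17.5, a direction that turned with median ratio scaling. It had 33.4, 36.5 and 38.5 FPKM before birth, 20.2, 25.4 and 23.9 at Day 0, 43.7, 29.1 and 48.3 at Day 1, and 31.9, 33.9 and 42.4 at Day 25. At Day 45 it had 17.7, 20.1 and 17.7 FPKM. At Day 60 it had 15.5, 17.4 and 40.6 FPKM, so that 1 mouse stood apart from the other two. Its decline from GD17.5 to Day 60 was -0.67 (adjusted p = 0.00747, limma), -1.09 without that mouse, and not called without either of the other Day 60 mice (-0.42 and -0.50). With a common upper quartile it was -0.08 and with median ratio scaling 0.12, neither of them called.

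**Figure D2:**
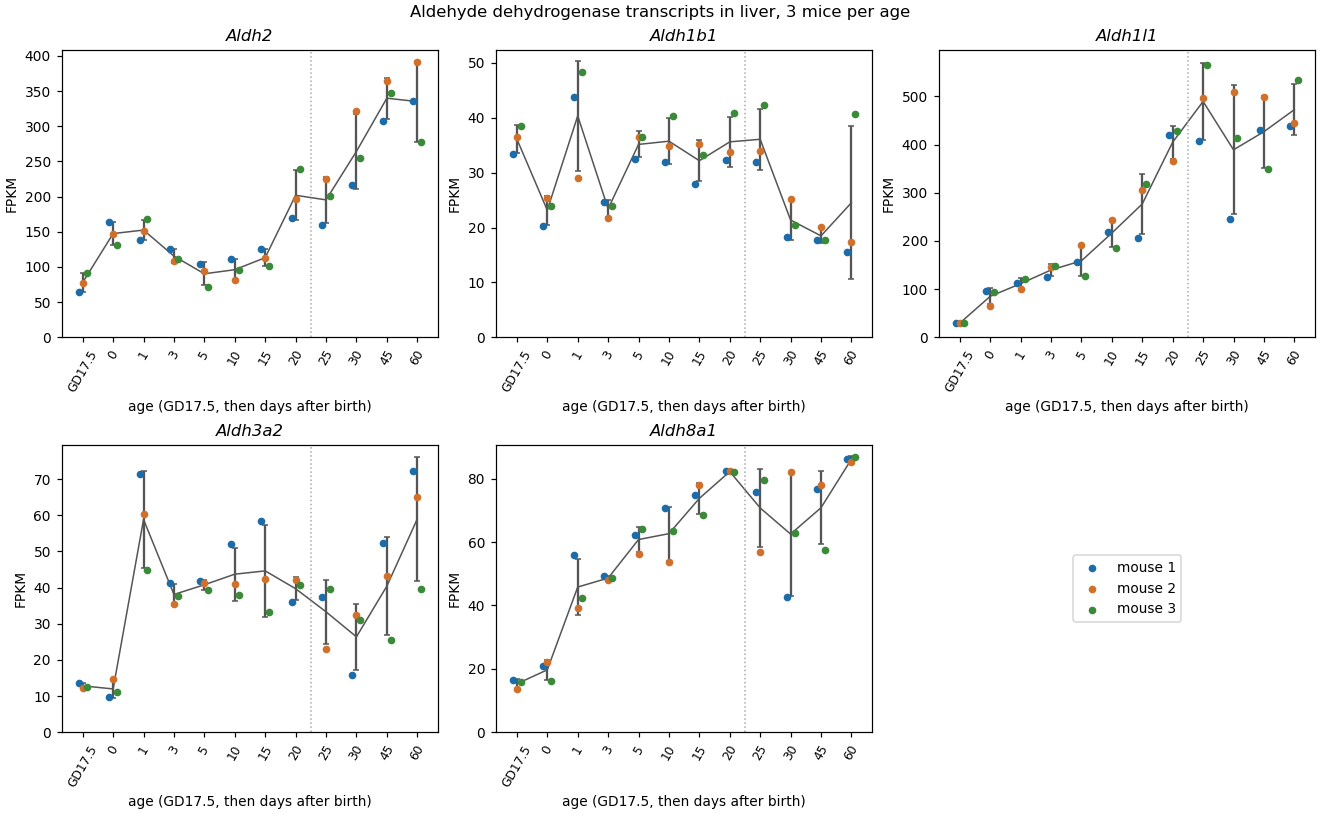
FPKM of Aldh2, Aldh1b1, Aldh1l1, Aldh3a2 and Aldh8a1 in each of 36 mice against age (points, 3 mice per age; lines join age means, error bars are SD, linear axes from 0). The dotted line marks weaning. Aldh3a2 is at 9.86 to 14.8 FPKM through Day 0 and at 44.8 to 71.3 FPKM at Day 1, and 1 Day 60 mouse is apart from the others in Aldh1b1.

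The summed FPKM of the 5 ALDH genes rose from 172 ± 15.3 at GD17.5 to 977 ± 28.1 at Day 60. At GD17.5 Aldh2 made up 45.2% ± 3.63 of that sum, Aldh1b1 21.1% ± 0.496 and Aldh1l1 17.3% ± 1.29. At Day 25 Aldh1l1 made up 59.2% ± 1.95, and at Day 60 48.4% ± 5.42 beside 34.3% ± 5.39 for Aldh2 and 2.51% ± 1.43 for Aldh1b1. Aldh3a2 had its largest share, 14.5% ± 3.41, at Day 1. The ratio of Aldh2 to Aldh1b1, the pair of related mitochondrial enzymes, was 2.15 ± 0.208 at GD17.5 and 18.4 ± 1.17 at Day 45. The ratio of Adh1 to Aldh2, which stand for the consecutive steps of ethanol oxidation, went from 0.817 ± 0.102 at GD17.5 to 5.4 ± 1.25 in newborns, 15.8 ± 1.34 at Day 25 and 5.93 ± 1.25 at Day 60.

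**Figure D3:**
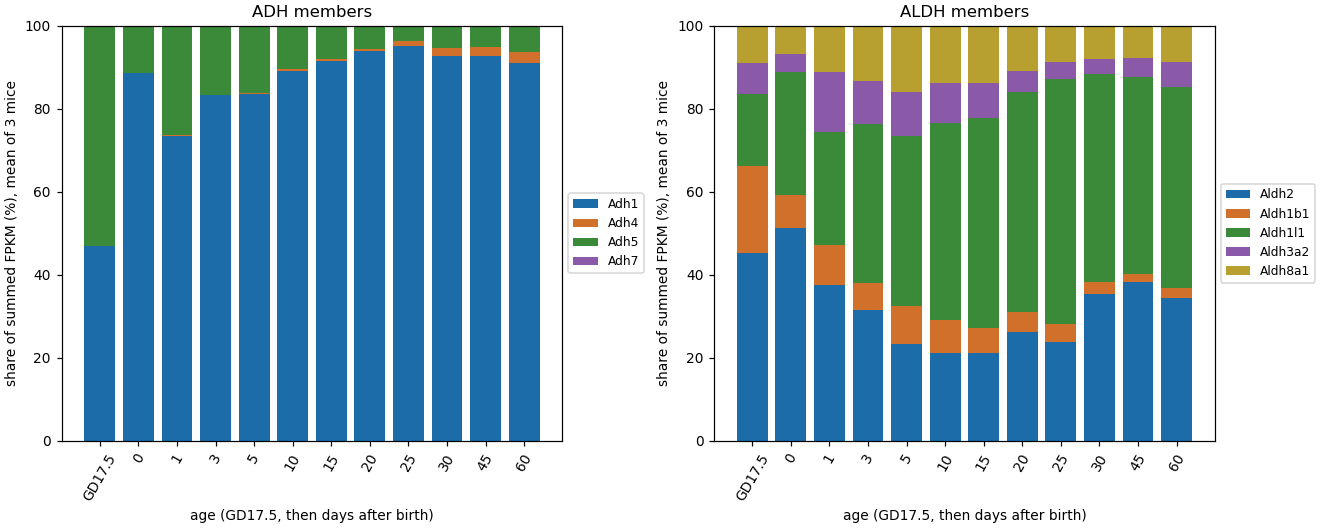
Share of each gene in the summed FPKM of the 4 ADH members (left) and of the 5 ALDH members (right) against age, as the mean of 3 mice in stacked bars. Adh5 holds 53.0% of the ADH sum at GD17.5 and 11.3% at Day 0, Adh7 is too small to be seen, and Aldh1l1 grows from 17.3% to 59.2% of the ALDH sum at Day 25.

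The birth and suckling steps were compared across the whole set. From GD17.5 to Day 0, 5 members rose (Adh1, Aldh1l1, Aldh2, Adh7 and Adh5) and Aldh1b1 fell by 0.62 (adjusted p = 0.0184, limma), a call lost with upper quartile or median ratio scaling. Across all genes 54.6% were called at birth, 13.1% higher and 41.4% lower (20.3% and 25.6% with a common upper quartile, 24.3% and 19.2% with median ratio scaling). Of the hepatocyte markers 10 of 10 were higher at Day 0, with a median difference of 2.82 against 0.46 for the members, and 9 of 9 erythroid markers were lower. The part of these markers in the birth step was not tested.

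From Day 0 to Day 1, 4 members rose (Aldh3a2, Aldh8a1, Aldh1b1 and Adh7) and Adh1 fell. Across all genes 31.6% were called, 23.7% higher and 7.88% lower (14.8% and 12.2% with a common upper quartile, and with median ratio scaling 36.5% of the calls were higher). Adh7 passed the filter on low values only through its Day 1 mean of 1.33 FPKM (the next highest was 0.913 at Day 0), so its call at this step rests on the age that admitted it and supports nothing by itself. The call of Aldh1b1 (0.75, adjusted p = 0.0109, limma) was lost without Day 1 mouse 1 or mouse 3 (0.68 and 0.61). That of Adh7 (0.29, adjusted p = 0.027, limma) was lost without Day 0 mouse 2, Day 0 mouse 3 or Day 1 mouse 2 (0.29, 0.20 and 0.26). With a pseudocount of 0.1 it was also lost (0.53, adjusted p = 0.0647), while Adh4, at 0.37 and not called with a pseudocount of 1, was called (1.12, adjusted p = 0.000138, limma). The members called were 3 with median ratio scaling, 4 with a common upper quartile and 7 with TPM.

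Over broader spans, 7 members were higher at Days 10 to 20 than at GD17.5 to Day 5 and none lower, with Adh7 (0.06) and Aldh1b1 (0.16) not called. Across all genes 75.8% were called, 14.6% higher and 61.2% lower (32.9% and 34.8% with a common upper quartile, where 9 members were higher). The smallest called differences were those of Adh5 (0.20, adjusted p = 0.00268) and Aldh2 (0.20, adjusted p = 0.0436, limma), and the latter was lost when any 1 of 15 mice was left out. Between Days 10 to 20 and Days 25 to 60, Adh1 (0.82), Adh4 (2.65), Adh5 (0.18), Aldh1l1 (0.60) and Aldh2 (1.08) rose, and Aldh1b1 fell by 0.52 (not called with median ratio scaling). Across all genes 57.3% were called, 12.4% higher and 44.9% lower (19.3% and 37.1% with a common upper quartile, 29% and 27.1% with median ratio scaling). Markers of other cells fell over the same span: 9 of 9 erythroid (median -0.57), 10 of 10 other blood cell (-1.62), 5 of 5 endothelial (-0.97) and 6 of 6 stellate and mesenchyme markers (-1.37), while 3 of 10 hepatocyte markers were higher and 5 lower (-0.18). Their part in these differences was not tested. Aldh3a2 (-0.19, and 0.13 with median ratio scaling) and Aldh8a1 (-0.02, and 0.30 and called with median ratio scaling) were not called there.

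Between GD17.5 to Day 5 and Days 25 to 60, 7 members were higher, Adh7 was not called (-0.04, and 0.20 and called with a common upper quartile) and Aldh1b1 was lower by 0.36 (0.26 higher and called with a common upper quartile). Across all genes 85.7% were called, 15.5% higher and 70.2% lower (33.4% and 45.9% with a common upper quartile, 41.7% and 38.3% with median ratio scaling). All 9 erythroid, all 10 other blood cell and all 5 endothelial markers in the table and 5 of 6 stellate and mesenchyme markers were lower over this span and 8 of 10 hepatocyte markers higher, and their part in it was not tested. Counted by age, 7 of the 9 members differed from Day 60 at Day 0 and 7 at Day 1, against 63.9% and 65% of all genes. The count at Day 1 includes Adh7 (0.43), which passed the filter only through its Day 1 mean, so that call supports nothing by itself. At Day 20 the members were 3, against 15.9%, and at Day 25 they were 2, Adh4 and Aldh2, against 7.42%. At Day 45 none differed, against 0.233% of all genes. A difference that missed the threshold is not shown to be absent.

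**Figure D4:**
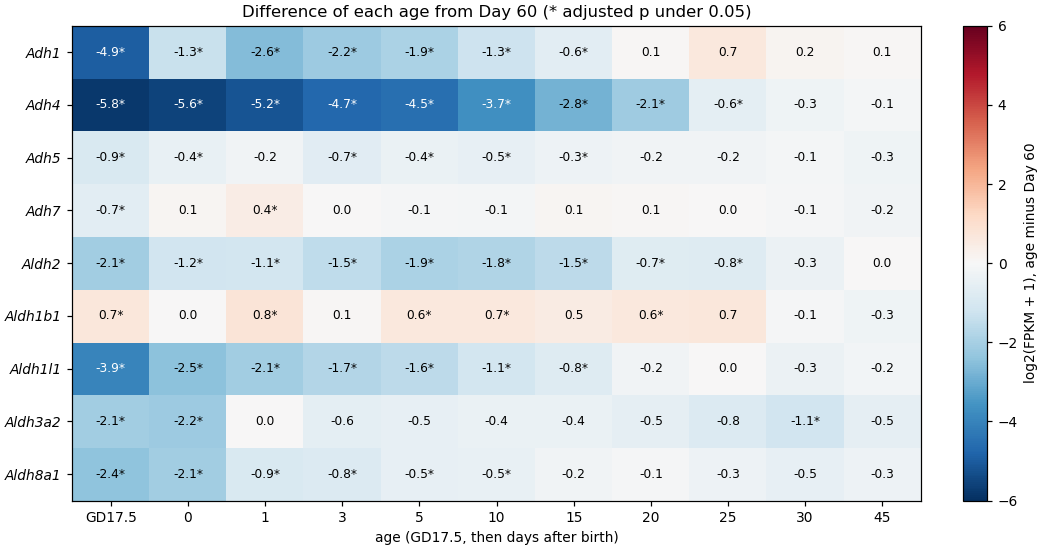
Difference of each of 11 ages from Day 60 on the log2(FPKM + 1) scale for the 9 members (rows) by age (columns), with blue for lower and red for higher than Day 60 and a star where the adjusted p was under 0.05. Adh4 is lower through Day 25 and Adh1 through Day 15, and Aldh1b1 is above Day 60 at several ages, a direction that at GD17.5 turns with median ratio scaling.

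The other genes of these families and routes were read from lists, with levels as mean ± SD of 3 mice. Among the further ADH-like genes 2 passed the filter. Akr1a4, an aldehyde reductase of the aldo-keto family, had 187 ± 28.9 FPKM at GD17.5 and 233 ± 8.42 at Day 60 and was not called between GD17.5 to Day 5 and Days 25 to 60 (-0.04), and Adhfe1, an iron-containing hydroxyacid-oxoacid transhydrogenase, was higher by 1.04 (adjusted p = 4.18e-09, limma). Adh6a, between Adh1 and Adh4 in the cluster, had at most a mean of 0.0297 ± 0.017 FPKM and was not tested. Of 11 tested further ALDH genes, 7 were higher and 3 lower at Days 25 to 60 than at GD17.5 to Day 5, a span over which 85.7% of all genes were called, 15.5% higher and 70.2% lower (41.7% and 38.3% with median ratio scaling). Aldh1a1, a cytosolic retinal dehydrogenase, rose from 0.987 ± 0.382 FPKM at GD17.5 and 30.7 ± 11.8 at Day 20 to 215 ± 29.2 at Day 25 and 393 ± 128 at Day 60. It was called at the step from Day 20 to Day 25 (2.83, adjusted p = 4.5e-08, limma), as was Adh4. Aldh4a1, of proline breakdown, rose by 0.81 (adjusted p = 6.64e-09, limma).

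In the ethanol and acetate route 6 of 8 tested genes were higher and 2 lower at Days 25 to 60 than at GD17.5 to Day 5, with a median difference of 1.41. Over all genes 15.5% were higher and 70.2% lower, with a median of -0.54 (41.7%, 38.3% and 0.03 with median ratio scaling). Cyp2e1, the microsomal ethanol-oxidising cytochrome P450, had 0.961 ± 0.0683 FPKM before birth, 4080 ± 614 at Day 20 and 2070 ± 616 at Day 60. It fell by 1.08 from Day 20 to Day 25 (adjusted p = 0.00383, limma). Cat, catalase, had 66.1 ± 13.1 FPKM at GD17.5 and 362 ± 90.8 at Day 60. Acss2, the cytosolic acetyl-CoA synthetase that uses acetate, had 18.2 ± 2.42 FPKM at GD17.5, 5.55 ± 1.13 at Day 1, 11.5 ± 0.825 at Day 20 and 137 ± 36 at Day 25, a step of 3.43 (adjusted p = 7.78e-09, limma). Adh1 and Aldh2, of the same route, were not called at that step.

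In the kynurenine route, to which Aldh8a1 belongs, 8 of 10 tested genes were higher and none lower at Days 25 to 60 than at GD17.5 to Day 5, with a median of 1.47, against 15.5% higher and 70.2% lower among all genes (41.7% and 38.3% with median ratio scaling). Haao, which forms the precursor of quinolinate, had 60.9 ± 9.12 FPKM at GD17.5 and 332 ± 40.8 at Day 60 (1.88, adjusted p = 1.56e-15, limma). Ccbl2, a kynurenine aminotransferase, was 6.65 ± 0.992 FPKM at GD17.5 and 43.6 ± 10.1 at Day 0. Qprt, which uses quinolinate, was 53.5 ± 7.3 FPKM at GD17.5 and 91.7 ± 21.3 at Day 60, with differences of 0.10 and 0.02 for these genes over the broad span that were not called. In the folate and formaldehyde route of Aldh1l1 and Adh5, 10 of 18 tested genes were higher and 6 lower, with a median of 0.17, so that the share called was near the 85.7% of all genes. By direction 55.6% were higher and 33.3% lower, against 15.5% and 70.2% of all genes (41.7% and 38.3% with median ratio scaling). Sardh, which releases one-carbon units from sarcosine, rose by 1.13 (adjusted p = 4.87e-12), Ftcd, of histidine breakdown, by 0.27 (adjusted p = 0.00286, limma), and Shmt2, the mitochondrial serine hydroxymethyltransferase, was not called (-0.10).

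Of the retinoid oxidoreductases 7 of 15 tested were higher and 5 lower over the same span, with a median of 0.07. Again the share called was near the 85.7% of all genes, of which 15.5% were higher and 70.2% lower (41.7% and 38.3% with median ratio scaling). Rdh7, a retinol dehydrogenase, had 16.1 ± 4.25 FPKM at GD17.5 and 283 ± 10.6 at Day 0, a step of 4.08 (adjusted p = 1.13e-17, limma) that stood beside the 3.61 of Adh1. Dhrs3, a retinal reductase, rose by 1.51 over the broad span (adjusted p = 5.44e-16, limma), and Dhrs4 was not called (0.07). In the fatty aldehyde and sphingolipid route of Aldh3a2, 4 of 9 tested genes were higher and 4 lower, also near the 85.7% called among all genes. By direction 44.4% were higher and 44.4% lower, beside the split of all genes given above. Phyh, the phytanoyl-CoA hydroxylase, had 61.2 ± 17.7 FPKM at Day 0 and 203 ± 22.6 at Day 1, Pecr, a peroxisomal enoyl-CoA reductase, 31.1 ± 1.2 and 33.9 ± 7.49, and Hacl1, the lyase that follows Phyh, 26.7 ± 8.72 and 60.4 ± 9.03.

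The members' courses over the 12 ages were compared by Pearson's r on log2(mean FPKM + 1), with the mean taken over the mice of an age first. This is a description without a test, since all points share libraries. Among the members Adh1 was most like Aldh1l1 (0.951), and Aldh8a1 was near both Aldh1l1 (0.916) and Aldh3a2 (0.842). Aldh2 and Aldh1b1 were opposite in sign (-0.591), which turned to 0.178 with a common upper quartile. Of the neighbours in the cluster, Adh4 and Adh5 had 0.747 (0.896 with a common upper quartile) and Adh1 and Adh7 had 0.387 (0.69 with a common upper quartile).

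Among all other tested genes, Adh1 was most like Ifitm3 (0.971), Apoc3 (0.97) and Fxyd1 (0.965), and Adh4 most like Mug-ps1 (0.992), Mug1 (0.99) and Mug2 (0.99), of the murinoglobulin group of plasma protease inhibitors, which are close copies whose reads the counting could have split or shared. Adh5 was most like Arg1 (0.942), the liver arginase, Atp5sl (0.922) and Tmem135 (0.915). Adh7 was most like Pnpla2 (0.953) and Plin5 (0.925), which act in the breakdown and coating of lipid droplets and also had their highest means at Day 1, and Glt1d1 (0.916). Aldh2 was most like Tmbim6 (0.946), Hopx (0.945) and B2m (0.94). Aldh1l1 was most like Slc27a5 (0.993), the bile acid-CoA ligase, Hsd11b1 (0.99), which regenerates active glucocorticoid, and Apon (0.99). Aldh3a2 was most like Agphd1 (0.975), Farp2 (0.966) and Akap1 (0.959), and Aldh8a1 most like Clmn (0.985), Amdhd1 (0.984), of histidine breakdown, and Ghdc (0.983). Aldh1b1 had the least similar partners, Nmd3 (0.832), Pex26 (0.807) and Uaca (0.806).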

How the data were processed

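Livers of 36 male mice at 12 ages were measured by RNA-Seq of polyadenylated RNA. The authors deposited 1 FPKM value per gene symbol and mouse, made with TopHat 1.2.0 on mm9 and Cufflinks 1.0.3 against Ensembl 65; no counts and no further scaling were given. A mean for every age was fitted to log2(FPKM + 1) by limma (3.58.1, under R 4.3.3) in all 36 mice together, with variances that follow mean expression. Genes with an age mean of at least 1 FPKM in some age were tested (11149), and p-values were adjusted by Benjamini-Hochberg over all of them within each comparison. For the count of genes that differed from Day 60 at some age, the adjustment ran over all genes and all comparisons with Day 60 together. FPKM holds no fragment totals, so depth was estimated from low values, 81.5% of which lay within 0.1 of a whole fragment; relative depth was 0.887 to 1.12. Mice came from several litters, but no label ties a mouse to a litter, so litter could not be modelled. The p-values set each difference between ages against the spread among mice of one age, and litters shared by mice were not accounted for. The fit was tested on simulated data.

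The members and gene lists were chosen with earlier results of these data known. Named were all members, for each the 3 tested genes with the highest r, and in each list the 3 tested genes with the highest mean; 1 gene of that rule is not reported here. Positions are from GENCODE M1 (NCBI37/mm9) and promoter windows from RefSeq. Alternatives were a pseudocount of 0.1, other filters and scalings, the replicate number as a block, no variance trend, Dunnett's comparison, fits of the compared ages only and each mouse left out in turn. Python 3.11.15 with pandas 2.3.3 and matplotlib 3.10.9 was used for sums and figures.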

Additional observations from a re-analysis of the deposited data

How the results depend on the processing

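The 63 differences of single members were recomputed under 526 combinations of member and setting, and 483 kept their direction and side of the threshold, 10 lost the call, 15 gained it and 18 changed direction. All changes of direction but 1 came with another scaling. Scaling moved the median difference of all genes between GD17.5 and Day 60 by 0.43 on the log2 scale with a common upper quartile and by 0.59 with median ratio scaling, and the cause of this shift was not tested. With a common upper quartile the direction changed for Aldh1b1 (0.26) and Adh7 (0.20) between GD17.5 to Day 5 and Days 25 to 60, Aldh3a2 from GD17.5 to Day 0 (0.14), Aldh2 from Day 0 to Day 1 (-0.10), Adh5 from Day 20 to Day 25 (0.027) and Aldh8a1 between Days 10 to 20 and Days 25 to 60 (0.12). With median ratio scaling it changed for the same comparisons of Aldh1b1 (0.46), Aldh3a2 (0.29), Aldh2 (-0.28), Adh5 (0.12) and Aldh8a1 (0.30), and also for Aldh1b1 between GD17.5 and Day 60 (0.12), Adh5 from Day 0 to Day 1 (-0.12), Aldh2 from Day 20 to Day 25 (0.08) and Aldh3a2 between Days 10 to 20 and Days 25 to 60 (0.13). With TPM it changed for Adh7 over the broad span (0.047) and Adh5 from Day 20 to Day 25 (0.011), and with a pseudocount of 0.1 for Adh7 over the broad span (0.057). The number of members called from Day 0 to Day 1 was 5 as reported, 3 with median ratio scaling, where Adh7 failed the filter, 4 with a common upper quartile, 7 with TPM, and 5 with a pseudocount of 0.1 with Adh4 in place of Adh7, and that from Day 20 to Day 25 was 2 with TPM.

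With 1 mouse left out, 2224 of 2268 values kept direction and side, 24 lost the call, 6 gained it and 14 changed direction. The count from Day 20 to Day 25 ranged from 1 to 2 (2 without Day 15 mouse 1). The differences that changed direction ranged from -0.07 to 0.084 for Adh5, -0.10 to 0.11 for Aldh1b1 and -0.167 to 0.088 for Aldh2 from Day 20 to Day 25, from -0.03 to 0.13 for Aldh2 from Day 0 to Day 1, from -0.261 to 0.011 for Aldh3a2 at birth, and from -0.077 to 0.038 for Aldh8a1 between Days 10 to 20 and Days 25 to 60. Replicate numbers mark different animals, but mice of the same number were somewhat alike across ages. Their deviations from the age mean had a median correlation of 0.126, against -0.048 for mice of other numbers. A correlation over 0.1 was found in 104 of 198 pairs of the same number. Of the 36 mice, 23 were best matched by their own number. The source of this likeness was not tested, and the main fit did not model it. With the replicate block the counts were 9 between GD17.5 and Day 60, 6 at birth, 5 from Day 0 to Day 1 and 1 from Day 20 to Day 25, and no call changed. FPKM carries no fragment counts, so low levels of Adh4 and Adh7 have no counting interval here.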
